A study of Homo sapiens with 9 samples.

Results

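The 10 genes described here encode the retinoblastoma (RB) family and the E2F transcription factors with their main dimer partner. They are RB1, RBL1 and RBL2, the E2F genes E2F1, E2F2, E2F3, E2F4, E2F7 and E2F8, and TFDP1. They were chosen by symbol, 10 of the 64253 gene identifiers in the count files, and each symbol had a single identifier. All 10 passed the filter on low counts, which left 16561 genes to test.

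RB1, RBL1 (also called p107) and RBL2 (also called p130) are the pocket proteins, which bind E2F factors and hold the genes under E2F control off. Cyclin D with CDK4 or CDK6, and then cyclin E with CDK2, phosphorylate the pocket proteins, which releases E2F and lets a cell enter S phase. The inhibitor p16, made from CDKN2A, blocks CDK4 and CDK6 and thereby keeps RB active, and in fibroblasts this arm is among the best known routes into senescence, a lasting exit from the cell cycle. E2F1, E2F2 and E2F3 are known mainly as activators. E2F4 works chiefly with RBL1 and RBL2 in the DREAM complex, which represses cell cycle genes in resting cells. E2F7 and E2F8 are atypical repressors that bind DNA without a DP partner, and TFDP1 encodes DP1, the partner that the other E2F proteins need to bind DNA.

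The cells were IMR90, human fetal lung fibroblasts with a limited lifespan in culture, in 9 RNA-seq libraries of 3 groups with 3 libraries each (a, b and c). The control carried the lentiviral vector pLKO.1, which the sample labels call empty and the treatment protocol calls a GFP vector. In the shRRM2 group a short hairpin RNA targeted RRM2, a subunit of the enzyme that makes deoxyribonucleotides, and is labelled as senescent through loss of these nucleotides. The shRRM2/shp16 group carried that hairpin and a second one against p16, and is labelled as having bypassed this senescence. All 3 groups were grown in 2% oxygen, used at population doubling 30, given a second virus 24 hours after the first and selected with puromycin at 3 ug/mL for 7 days. No group had the p16 hairpin alone, so its addition can be read only in RRM2-depleted cells. The labels do not say whether libraries a, b and c came from separate cultures, so the p-values measure the spread between these libraries, which may be technical.

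Several of these genes are themselves known E2F targets, so the stretch before the RefSeq start of transcription is shown. It is printed for the 5 members that hold a match to the E2F-type motif given below, and for E2F7 and E2F4, which hold none. RBL2 and RB1 hold none either and are not printed. Sequences are from RefSeq (GRCh38.p14), 5′ to 3′ on the gene's strand. Each run ends at the base before the RefSeq start, except that of TFDP1, which ends 33 bases before it. The GENCODE 29 annotation starts some transcripts earlier, so the last 19 bases of the E2F1 run and the last 11 of the E2F7 run lie in an annotated exon. Capitals mark a match to 1 of 8 forms of an E2F-type motif, TTTCCCGC, TTTCCCGG, TTTCGCGC, TTTCGCGG, TTTGCCGC, TTTGCCGG, TTTGGCGC and TTTGGCGG, read on both strands.
E2F1, chr20:33686386-33686510, minus strand: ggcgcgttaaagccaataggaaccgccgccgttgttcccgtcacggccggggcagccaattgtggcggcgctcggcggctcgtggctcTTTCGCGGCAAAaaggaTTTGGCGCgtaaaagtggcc
E2F2, chr1:23531234-23531358, minus strand: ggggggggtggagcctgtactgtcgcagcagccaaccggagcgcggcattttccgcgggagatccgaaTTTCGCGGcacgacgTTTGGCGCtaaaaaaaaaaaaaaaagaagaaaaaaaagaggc
E2F3, chr6:20401754-20401878, plus strand: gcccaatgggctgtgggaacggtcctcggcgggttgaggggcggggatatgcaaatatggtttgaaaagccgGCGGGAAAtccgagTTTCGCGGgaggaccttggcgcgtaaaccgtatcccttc
RBL1, chr20:37095998-37096122, minus strand: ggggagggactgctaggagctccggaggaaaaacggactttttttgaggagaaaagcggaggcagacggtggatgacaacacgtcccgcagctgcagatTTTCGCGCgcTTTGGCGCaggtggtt
TFDP1, chr13:113584628-113584720, plus strand: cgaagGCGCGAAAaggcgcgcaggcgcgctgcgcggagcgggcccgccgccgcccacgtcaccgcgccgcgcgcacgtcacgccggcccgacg
E2F7, chr12:77065570-77065694, minus strand: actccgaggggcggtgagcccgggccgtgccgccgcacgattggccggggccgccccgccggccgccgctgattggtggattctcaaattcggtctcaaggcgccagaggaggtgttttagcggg
E2F4, chr16:67192030-67192154, plus strand: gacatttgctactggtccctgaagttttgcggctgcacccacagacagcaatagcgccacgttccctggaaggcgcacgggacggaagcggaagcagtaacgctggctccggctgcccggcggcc
The first 5 of these genes hold a match and the last 2 do not. E2F3 has another RefSeq start, at 20403614, whose window held 0 matches and is not shown. In a window from 250 bases before to 50 bases after the start, 6.19% of 35116 RefSeq entries held a match. That share counts entries of all genes, tested or not. Among tested genes outside this set, 1251 held a match and 9137 did not. Of the members, 9 had entries and 5 of the 9 held a match; E2F8 had none, and the single RB1 entry lies at a start within the gene. E2F1 had 3 matches, of which the first 2 overlap on opposite strands, the nearest ending 13 bases before the RefSeq start and lying almost wholly in those exon bases. In RBL1 the nearer of 2 matches ends 9 bases before the start. A match is a run of letters, and no binding was measured in these cells.

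Gene-assigned reads numbered 15770895 to 24873291 per library, and 7478 to 14383 of them fell in the 10 genes. RRM2 checked the labels: it lay between 481 and 491 CPM (the usual read count scaled to library size, here with TMM factors) in control, between 60.0 and 63.2 in shRRM2 and between 175 and 181 in shRRM2/shp16. The hairpin groups thus differed in RRM2 itself, which was at 12.8% of control with its hairpin alone and at 36.5% with both hairpins, and its part in their other differences was not tested. CDKN2A, counted here over all its transcripts, was at 5.95 to 6.15, 5.97 to 6.79 and 3.93 to 4.57 CPM, with log2 fold changes of 0.11 (SE 0.12, edgeR adjusted p = 0.431) for shRRM2 against control and -0.60 (SE 0.13, adjusted p = 7.0e-05) for shRRM2/shp16 against shRRM2. All 8 fibroblast markers were tested, with a summed level of 26838 to 27701 CPM in control, 26256 to 27053 in shRRM2 and 22096 to 22696 in shRRM2/shp16. COL1A1 and COL1A2 carry most of that sum, and single markers moved in both directions. In shRRM2 against control 5 of the 8 fell and 2 rose, with DCN at 61.2% and VIM at 66.1% of control. In shRRM2/shp16 against control 5 fell and 2 rose, with VIM at 40.1% and COL3A1 at 211% of control. The 4 epithelial markers summed to 24.1 to 25.3, 12.0 to 13.4 and 3.34 to 5.59 CPM. CLDN4 was most of this, at 22.9, 10.7 and 2.37 CPM on average, while EPCAM and CDH1 averaged at most 1.27 CPM in each group. The endothelial markers summed to at most 2.54 CPM and the leukocyte markers to at most 0.158, with CD3E at 0 in all 9 libraries. The share of uniquely aligned reads outside annotated genes was 17.6% to 18.9% in control, 27.7% to 28.8% in shRRM2 and 23.5% to 24.4% in shRRM2/shp16. The part of these differences in the results below was not tested.

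In shRRM2 against control, 8 of the 10 genes fell and 2 (RBL2 and E2F3) rose, at an edgeR adjusted p of 0.05. Changes were common in this comparison: 60.9% of all genes tested were called, 31.8% lower and 29.0% higher. The median log2 fold change of the 10 genes was -0.52, against 0.00 over all genes tested. When the p16 hairpin was added to shRRM2, 2 genes rose (RB1 and RBL2), 5 fell (E2F1, E2F3, E2F7, E2F8 and TFDP1) and 3 did not pass, where 61.1% of all genes were called, 29.1% lower and 31.9% higher. In shRRM2/shp16 against control, 1 rose (RBL2), 7 fell and 2 did not pass (RB1 and E2F3), where 62.4% of all genes were called, 32.4% lower and 30.0% higher. The groups did not overlap for 10, 7 and 8 of the 10 genes in the 3 comparisons, against 63.6%, 64.7% and 66.2% of all genes tested. The median of the 10 genes was -0.17 and -0.81 in the latter comparisons, and that of all genes was 0.01 in both. The 3 comparisons share their libraries and are not independent of each other. RNA was measured in bulk, so fewer cells that express a gene and less RNA per cell cannot be told apart.

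**Figure D1:**
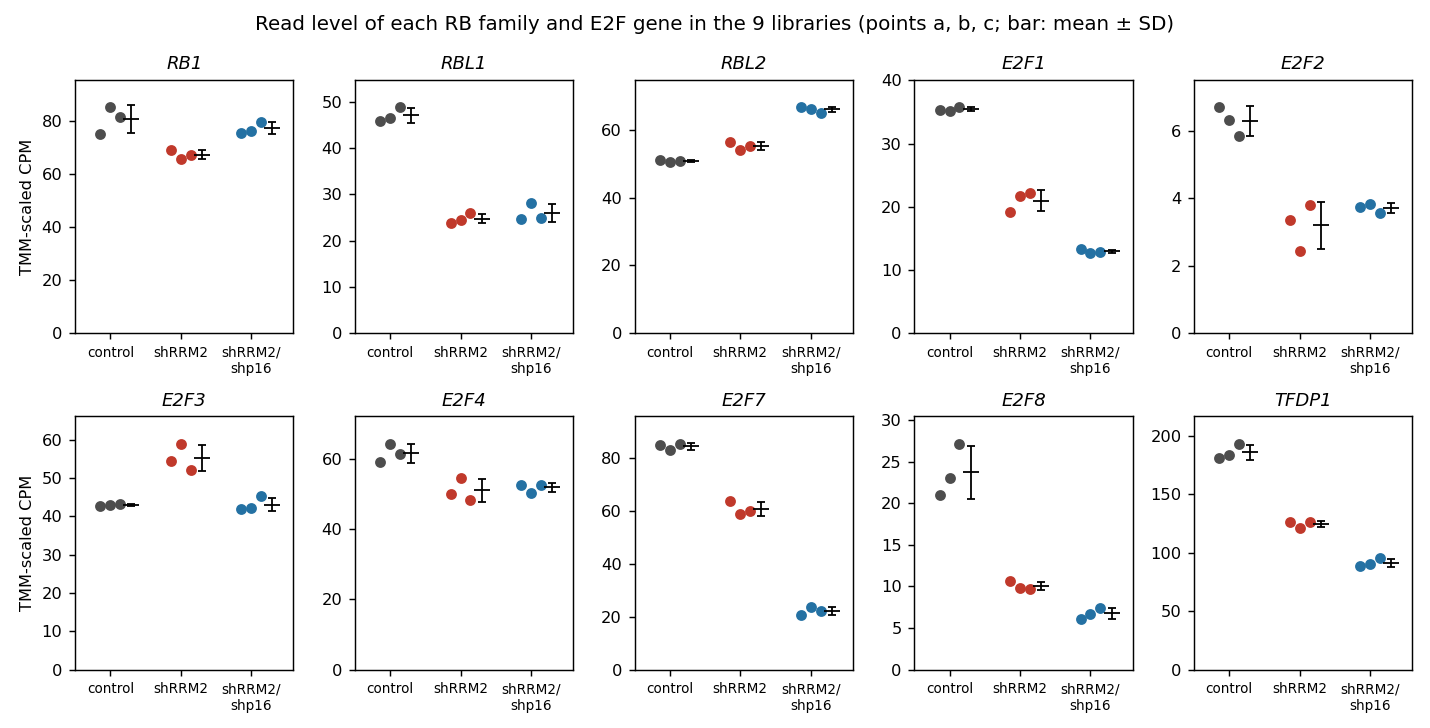
Level of each of the 10 genes in TMM-scaled CPM (vertical axis, linear from 0) in the libraries a, b and c of each group, with the group mean ± SD (n = 3) beside the points. E2F1, E2F7, E2F8 and TFDP1 step down from control to shRRM2 and again to shRRM2/shp16, RBL2 steps up, and RB1 and E2F3 lie in shRRM2/shp16 near their control levels.

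RB1 lies on chromosome 13 (48303726 to 48599436, plus strand, GRCh38) and encodes the pocket protein that binds chiefly the activator E2Fs. Its level was 75.1, 85.5 and 81.8 CPM in control libraries a, b and c, 69.3, 65.7 and 67.4 in shRRM2, and 75.7, 76.5 and 79.9 in shRRM2/shp16. The shRRM2 libraries were the lowest 3 of the 9, and the other groups overlapped. RB1 was lower by a small amount in shRRM2 than in control, at a log2 fold change of -0.26 (SE 0.05, adjusted p = 4.2e-06), and higher again by 0.20 (SE 0.05, adjusted p = 2.1e-04) in shRRM2/shp16 than in shRRM2. Both calls were lost with limma on all 9 deposited log2 RPKM columns, at -0.13 (adjusted p = 0.249) and 0.17 (adjusted p = 0.131). Between shRRM2/shp16 and control the difference was -0.06, with a 95% interval from -0.15 to 0.03 (adjusted p = 0.247). Without control a, the lowest control library, it was -0.11 (adjusted p = 0.0350).

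RBL1 lies on chromosome 20 (36996349 to 37095995, minus strand) and encodes p107, the pocket protein most tied to cycling cells and itself an E2F target. It was at 45.8, 46.6 and 49.0 CPM in control, 23.9, 24.5 and 25.9 in shRRM2, and 24.7, 28.2 and 24.9 in shRRM2/shp16. No library of either hairpin group reached the control range, and the hairpin groups overlapped. RBL1 fell to 52.7% of control in shRRM2, a log2 fold change of -0.92 (SE 0.06, adjusted p = 8.0e-18). It was at 55.2% of control in shRRM2/shp16 (-0.86, SE 0.06, adjusted p = 1.9e-17). Adding the p16 hairpin left a difference of 0.07, with a 95% interval from -0.06 to 0.20 (adjusted p = 0.373).

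RBL2 lies on chromosome 16 (53433977 to 53491649, plus strand) and encodes p130, the pocket protein that predominates in resting cells. Its level was 51.1, 50.8 and 50.9 CPM in control, 56.6, 54.3 and 55.5 in shRRM2, and 67.0, 66.4 and 65.3 in shRRM2/shp16. The 3 groups did not overlap and rose in that order, so RBL2 was the only one of the 10 genes called higher in all 3 comparisons. The first step was small, with a log2 fold change of 0.12 (SE 0.04, adjusted p = 0.0170). That call was lost with no low-count filter (0.08, adjusted p = 0.244), without control c (0.11, adjusted p = 0.0559) and without shRRM2 a (0.11, adjusted p = 0.0554), and limma on all 9 deposited columns gave a larger value of 0.22 (adjusted p = 0.0146). The step from shRRM2 to shRRM2/shp16 was 0.26 (SE 0.04, adjusted p = 2.1e-06), and that from control to shRRM2/shp16 was 0.38 (SE 0.04, adjusted p = 2.4e-10). RBL2 shares 610 exon bases with AKTIP and 721 with a second gene, both on the opposite strand. The strand setting of the counting is not given in the sources used here, so reads from those bases could belong to either. The same holds for 211 exon bases of RBL1 and 7 of E2F8 that an antisense gene shares.

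E2F1, on chromosome 20 (33675683 to 33686404, minus strand), encodes the activator most often used as a readout of RB inactivation. It was at 35.3, 35.2 and 35.8 CPM in control, 19.1, 21.6 and 22.2 in shRRM2, and 13.3, 12.7 and 12.8 in shRRM2/shp16. The groups were well apart, and the libraries with both hairpins were the lowest. E2F1 fell to 59.4% of control in shRRM2 (log2 fold change -0.75, SE 0.06, adjusted p = 6.7e-14). With the p16 hairpin added it fell to 61.6% of the shRRM2 level (-0.70, SE 0.07, adjusted p = 5.9e-11), which left 36.6% of the control level (-1.45, SE 0.07, adjusted p = 6.9e-23). E2F1 thus did not return towards control in the cells labelled as having bypassed senescence.

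E2F2, on chromosome 1 (23506430 to 23531220, minus strand), encodes a second activator and was the least counted of the 10 genes, with 42 to 160 reads per library. It stood at 6.70, 6.32 and 5.84 CPM in control, 3.36, 2.42 and 3.79 in shRRM2, and 3.75, 3.83 and 3.55 in shRRM2/shp16. Control was above both hairpin groups, which overlapped. E2F2 fell to 50.5% of control in shRRM2 (log2 fold change -0.99, SE 0.15, adjusted p = 1.8e-07) and was at 58.8% of control in shRRM2/shp16 (-0.77, SE 0.14, adjusted p = 5.5e-06). The difference on adding the p16 hairpin was 0.22, with a wide 95% interval from -0.11 to 0.55 (adjusted p = 0.246). It passed with limma on the log2 RPKM columns without that of shRRM2 c (0.37, adjusted p = 0.0352).

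E2F3, on chromosome 6 (20401906 to 20493715, plus strand), was the one activator that rose with the RRM2 hairpin. It was at 42.7, 42.9 and 43.2 CPM in control, 54.6, 59.0 and 52.1 in shRRM2, and 42.0, 42.1 and 45.2 in shRRM2/shp16. The 3 shRRM2 libraries were the highest, and the other groups overlapped. The log2 fold change was 0.36 (SE 0.05, adjusted p = 3.7e-08) for shRRM2 against control and -0.36 (SE 0.05, adjusted p = 4.7e-08) for shRRM2/shp16 against shRRM2. Between shRRM2/shp16 and control it was 0.01, with a 95% interval from -0.10 to 0.11 (adjusted p = 0.934). The counts are per gene, so the long and short E2F3 isoforms were not separated.

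E2F4, on chromosome 16 (67192169 to 67198918, plus strand), encodes the main E2F of repressor complexes in resting cells. It was at 59.0, 64.4 and 61.5 CPM in control, 50.1, 54.6 and 48.4 in shRRM2, and 52.7, 50.4 and 52.7 in shRRM2/shp16. All 6 hairpin libraries lay below the control range, by a small amount. The log2 fold change was -0.27 (SE 0.05, adjusted p = 6.8e-06) for shRRM2 against control and -0.24 (SE 0.05, adjusted p = 1.9e-05) for shRRM2/shp16 against control. The latter call was lost with limma on the deposited log2 RPKM values, where the median of all genes was 0.11, at -0.14 with all 9 columns (adjusted p = 0.234) and -0.14 without that of shRRM2 c (adjusted p = 0.0546). Between the hairpin groups the difference was 0.02, with a 95% interval from -0.08 to 0.13 (adjusted p = 0.689).

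E2F7, on chromosome 12 (77021247 to 77065580, minus strand), encodes an atypical repressor of E2F target genes. It was at 85.2, 83.1 and 85.6 CPM in control, 63.9, 59.0 and 59.9 in shRRM2, and 20.6, 23.8 and 22.3 in shRRM2/shp16. It dropped in both steps, and most in the second. In shRRM2 it was at 71.9% of control (log2 fold change -0.48, SE 0.04, adjusted p = 1.9e-12). With the p16 hairpin added it was at 36.5% of the shRRM2 level (-1.45, SE 0.05, adjusted p = 3.9e-26), the largest change among the 10 genes in that comparison. Against control, 26.3% of the level was left (-1.93, SE 0.05, adjusted p = 8.5e-32).

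E2F8, on chromosome 11 (19224063 to 19241620, minus strand), encodes the other atypical repressor. It was at 21.0, 23.0 and 27.2 CPM in control, 10.6, 9.81 and 9.70 in shRRM2, and 6.13, 6.72 and 7.42 in shRRM2/shp16. Control libraries spread more than the others, yet the groups did not overlap. In contrast to E2F7, the larger step came with the RRM2 hairpin, to 42.6% of control (log2 fold change -1.23, SE 0.09, adjusted p = 1.0e-15). With the p16 hairpin added it was at 67.4% of the shRRM2 level (-0.57, SE 0.11, adjusted p = 3.0e-05) and 28.7% of control (-1.80, SE 0.09, adjusted p = 7.1e-21). The difference between E2F7 and E2F8 in the size of the steps was not tested.

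TFDP1, on chromosome 13 (113584721 to 113641470, plus strand), encodes the DP1 partner. It was at 181, 183 and 193 CPM in control, 126, 121 and 126 in shRRM2, and 89.1, 90.2 and 95.4 in shRRM2/shp16. The groups did not overlap, and the level dropped in both steps. The log2 fold change was -0.57 (SE 0.04, adjusted p = 2.9e-18) for the first step and -0.44 (SE 0.04, adjusted p = 8.0e-14) for the second. In shRRM2/shp16 it was at 49.3% of control (-1.02, SE 0.04, adjusted p = 3.4e-27).

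**Figure D2:**
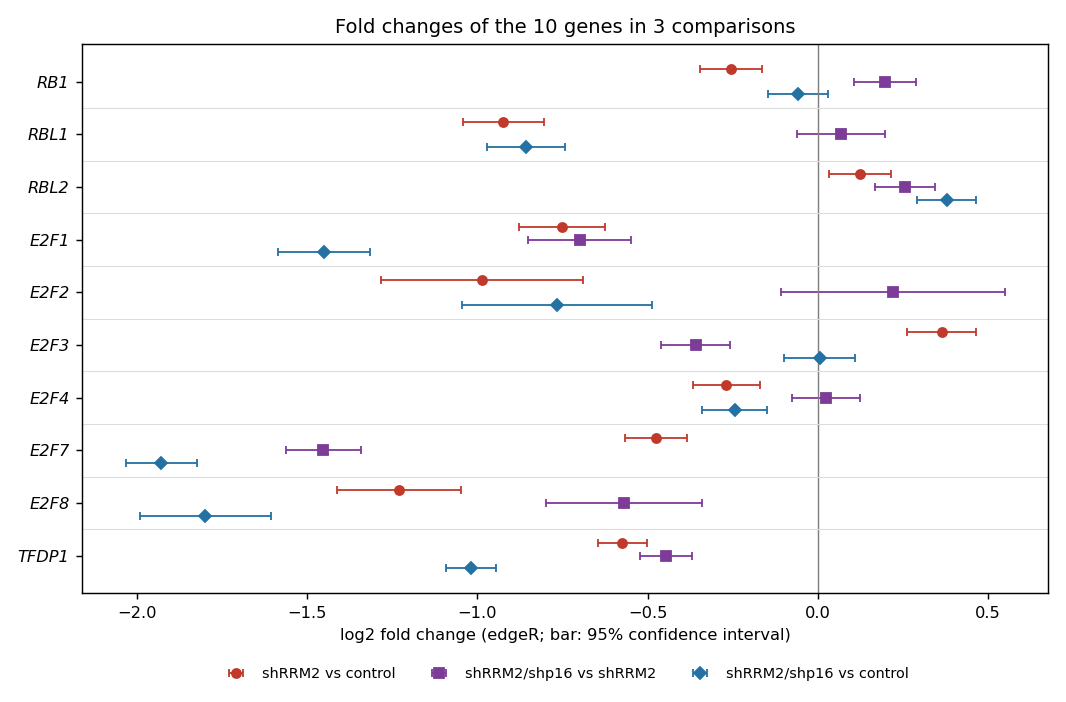
Log2 fold change (horizontal axis) with its 95% confidence interval from edgeR for each of the 10 genes in shRRM2 against control (circles), shRRM2/shp16 against shRRM2 (squares) and shRRM2/shp16 against control (diamonds). The interval spans 0 for RBL1, E2F2 and E2F4 in the second comparison and for RB1 and E2F3 in the last, and E2F7 reaches -1.93.

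Of 4 further E2F and DP genes, 3 could be tested. E2F5, partner of the pocket proteins RBL1 and RBL2, was at 6.30 ± 0.49 CPM in control and 5.63 ± 1.04 in shRRM2, and rose to 11.3 ± 0.61 in shRRM2/shp16 (SD, n = 3; log2 fold change 1.0 against shRRM2, SE 0.11, adjusted p = 2.9e-10). E2F6, a repressor that works without pocket proteins, was at 16.4 ± 1.10, 15.8 ± 0.35 and 20.6 ± 1.21 CPM, and rose by 0.38 in that comparison (SE 0.08, adjusted p = 2.9e-05). TFDP2, which encodes the second DP partner, was at 16.2 ± 1.39, 16.8 ± 1.53 and 22.0 ± 1.30 CPM, and rose by 0.39 (SE 0.08, adjusted p = 2.7e-05). None of the 3 passed in shRRM2 against control, where 60.9% of all genes were called. All 3 were higher in shRRM2/shp16 than in control, as were 30.0% of all genes. TFDP3 had too few counts to be tested.

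Levels of different genes were compared per length, in RPKM (CPM divided by the gene length in kilobases), from the same scaled counts. In control TFDP1 was the most abundant at 49.7 ± 1.80 RPKM, followed by E2F4 at 17.2 ± 0.75 (SD, n = 3). E2F7 at 13.4 ± 0.21, E2F1 at 13.1 ± 0.13 and RB1 at 13.1 ± 0.85 overlapped. E2F3 at 8.31, RBL1 at 7.92, RBL2 at 6.96, E2F8 at 5.73 and E2F2 at 1.15 came next, with no overlap between neighbours. In shRRM2 the order was TFDP1 at 33.3, E2F4 at 14.3, then RB1 at 10.9, E2F3 at 10.7 and E2F7 at 9.67, where each overlapped the next. E2F1 at 7.77 overlapped RBL2 at 7.58, and RBL1 at 4.16, E2F8 at 2.42 and E2F2 at 0.585 followed. In shRRM2/shp16 the order was TFDP1 at 24.5, E2F4 at 14.5, RB1 at 12.5, RBL2 at 9.05 and E2F3 at 8.35. Below these came E2F1 at 4.80 and RBL1 at 4.36, which overlapped, then E2F7 at 3.52, E2F8 at 1.63 and E2F2 at 0.680. RBL2 ranked the eighth in control and the fourth with both hairpins, while E2F7 went from the third place to the eighth. The authors' deposited group FPKM, also a level per length, order the middle genes otherwise. There RBL2 (15.6) lay above E2F3 (10.8) in shRRM2, and E2F7 (7.18) above E2F1 (4.75) in shRRM2/shp16. TFDP1, E2F4 and RB1 led and E2F8 and E2F2 came last there too.

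Within the pocket proteins, the share of RB1 in the summed RPKM was close in the 3 groups, at 46.8% ± 1.54 in control, 48.2% ± 0.56 in shRRM2 and 48.3% ± 1.22 in shRRM2/shp16 (SD, n = 3). The share of RBL1 was 28.3% ± 0.84, 18.4% ± 0.79 and 16.8% ± 1.11, and that of RBL2 was 24.9% ± 0.97, 33.4% ± 0.26 and 34.9% ± 0.80. RBL1 was above RBL2 in every control library and below it in every library of the hairpin groups. The summed level of the pocket proteins was 26.9 to 28.6 RPKM in control, 22.2 to 23.0 in shRRM2 and 25.6 to 26.2 in shRRM2/shp16.

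The summed level of the 6 E2F genes went from 57.6 to 60.0 RPKM in control to 44.4 to 46.8 in shRRM2 and 33.1 to 34.2 in shRRM2/shp16. E2F4 made up 29.2% ± 1.01 of it in control, 31.4% ± 1.05 in shRRM2 and 43.3% ± 0.91 in shRRM2/shp16. E2F3 rose from 14.1% ± 0.23 to 23.5% ± 0.83 and 24.9% ± 0.59. E2F1 went from 22.3% ± 0.37 to 17.1% ± 1.40 and 14.3% ± 0.44, and E2F7 from 22.8% ± 0.60 to 21.3% ± 1.29 and 10.5% ± 0.81. E2F8 made up 9.70% ± 1.11, 5.34% ± 0.32 and 4.87% ± 0.39, and E2F2 at most 2.13% in any library. These shares and those of the pocket proteins depend on the gene lengths used. They are a description of RNA levels and were not tested.

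**Figure D3:**
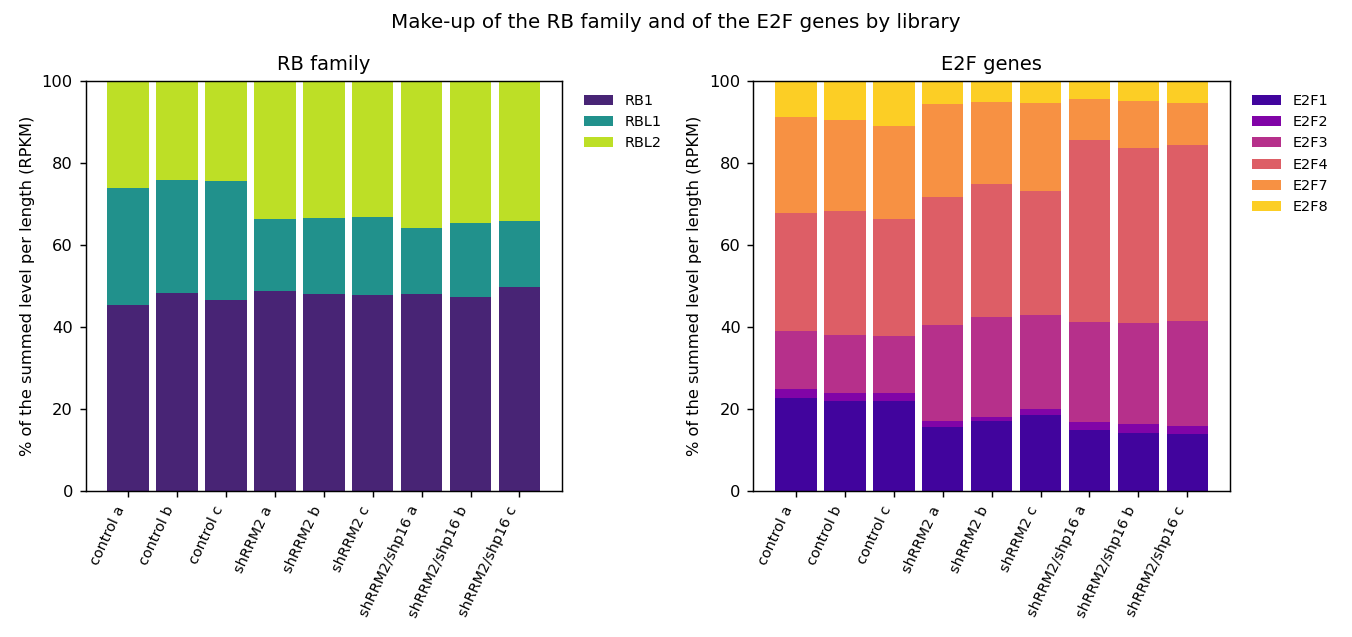
Share of each gene (vertical axis, percent of the summed RPKM) among the 3 pocket protein genes (left) and the 6 E2F genes (right) in each of the 9 libraries. RBL2 grows from 24.9% to 34.9% on average as RBL1 shrinks from 28.3% to 16.8%, and E2F4 reaches 43.3% of the E2F sum with both hairpins.

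Upstream of the pocket proteins, the 5 cyclin genes whose products activate the kinases that phosphorylate them rose with the RRM2 hairpin and fell when the p16 hairpin was added. Of the 3 kinases, CDK6 did the same, CDK4 fell and then rose, and CDK2 fell in both steps. Over these 8 genes, 6 rose and 2 fell in shRRM2 against control, and 1 rose and 7 fell in shRRM2/shp16 against shRRM2. CCND1 (cyclin D1) was at 1429 ± 56.1, 1974 ± 31.1 and 714 ± 9.64 CPM in control, shRRM2 and shRRM2/shp16. CCND2 was at 44.4 ± 1.25, 126 ± 2.49 and 36.7 ± 0.94 CPM, and CCNE1 (cyclin E1) at 7.87 ± 0.59, 13.1 ± 0.72 and 5.50 ± 0.45. CDK6 was at 278 ± 14.7, 465 ± 17.6 and 346 ± 1.15 CPM, and was the one gene of the list above control in shRRM2/shp16. CDK4 was at 134 ± 2.67, 77.9 ± 2.17 and 98.8 ± 2.88 CPM, and CDK2 was at 242 ± 7.07, 204 ± 5.73 and 138 ± 1.70. The median log2 fold change of the list was 0.40 and then -1.08. Over all genes tested, 29.0% rose and 31.8% fell in the first step, and 31.9% rose and 29.1% fell in the second.

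Among the CDK inhibitors, 2 rose, 3 fell and 1 did not pass of 6 tested in shRRM2 against control, where 60.9% of all genes were called. When the p16 hairpin was added 4 rose and 2 fell, where 61.1% of all genes were called. CDKN1A, which encodes p21, was at 505 ± 9.76, 1029 ± 29.8 and 729 ± 4.60 CPM, and CDKN2B (p15) at 6.51 ± 0.56, 9.30 ± 0.67 and 12.1 ± 0.45. CDKN2C (p18) fell from 45.3 ± 0.71 to 11.3 ± 0.50 CPM and stood at 17.7 ± 1.33 with both hairpins. CDKN1B was at 44.4 ± 3.43, 25.0 ± 0.53 and 42.1 ± 1.85 CPM, and CDKN2D at 15.0 ± 0.51, 6.05 ± 0.74 and 8.36 ± 0.49.

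Of 7 genes for corepressors that pocket proteins recruit, 1 rose, 4 fell and 2 did not pass in shRRM2 against control, a share near the 60.9% called among all genes. SUV39H1, a histone methyltransferase recruited by RB, fell from 26.5 ± 1.05 to 12.1 ± 0.58 CPM and was at 11.9 ± 0.82 with both hairpins. ARID4A, which encodes an RB-binding protein, rose from 17.0 ± 0.80 to 28.7 ± 0.20 CPM and was at 29.4 ± 1.41 with both. On adding the p16 hairpin 2 rose (HDAC2 by 0.33 and KDM5A by 0.29 on the log2 scale), SIN3B fell by 0.13, and 4 did not pass. Of all genes, 61.1% were called in that step.

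The MuvB core forms the DREAM complex with E2F4 and RBL1 or RBL2, and binds MYBL2 and FOXM1 instead when mitotic genes are activated. Of the 8 genes on this list, 7 fell in shRRM2 against control, where 31.8% of all genes fell. LIN37 did not pass (log2 fold change 0.32, SE 0.22, adjusted p = 0.210). FOXM1 fell from 240 ± 5.63 to 77.2 ± 4.07 CPM and was at 87.1 ± 0.24 with both hairpins. MYBL2, itself an E2F target, was at 93.4 ± 1.70, 31.6 ± 1.07 and 23.6 ± 0.66 CPM. On adding the p16 hairpin, 3 genes rose (FOXM1, LIN52 and RBBP4), 2 fell (MYBL1 and MYBL2) and 3 did not pass. That is near the 61.1% called among all genes.

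The targets of the family fell with the RRM2 hairpin and then moved in different directions by list. Of 30 known E2F targets of the G1/S transition, 29 fell in shRRM2 against control, where 31.8% of all genes fell. The median log2 fold change of these targets was -0.91. TK1, which encodes thymidine kinase, went from 111 ± 8.0 to 46.3 ± 0.57 CPM, and PRIM1, a primase subunit, from 9.32 ± 1.03 to 3.55 ± 0.50. When the p16 hairpin was added, 22 of the 30 fell further, 3 rose and 5 did not pass, with a median of -0.29. Among all genes, 29.1% fell and 31.9% rose in that step. DTL, which encodes a substrate receptor of the CRL4 ubiquitin ligase, fell from 40.9 ± 2.73 to 21.4 ± 1.33 CPM, and CHAF1B, a subunit of the chromatin assembly factor, from 16.1 ± 1.24 to 8.53 ± 0.60. UNG, which encodes the uracil-DNA glycosylase, rose from 22.1 ± 1.45 to 26.5 ± 0.94 CPM. Against control, 29 of 30 were lower in shRRM2/shp16, with a median of -1.23, and UNG was the 1 that was higher.

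All 18 targets of DREAM that act in G2 and mitosis fell in shRRM2 against control, where 31.8% of all genes fell. The median log2 fold change of the 18 was -1.65. On adding the p16 hairpin, 14 of them rose, 1 fell (AURKA) and 3 did not pass, with a median of 0.51. Among all genes, 31.9% rose and 29.1% fell in that step. KIF20A, a mitotic kinesin, went from 174 ± 2.09 to 31.7 ± 0.34 and back to 71.6 ± 1.39 CPM, and TOP2A, the topoisomerase of dividing cells, from 671 ± 19.1 to 229 ± 7.32 and 382 ± 10.8. All 18 were still below control with both hairpins, with a median of -1.28. Thus in shRRM2/shp16 against shRRM2, most G1/S targets moved down and most G2/M targets moved up. The difference between the lists was not tested.

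**Figure D4:**
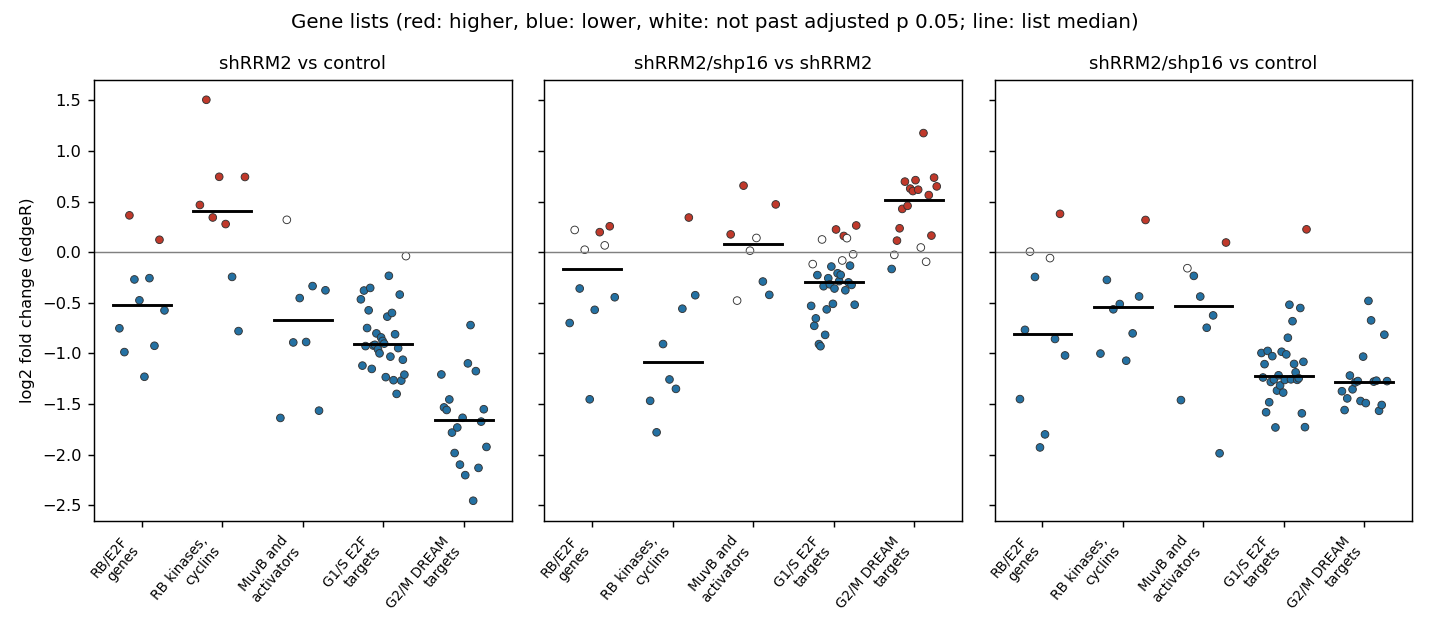
Log2 fold change (vertical axis) of each gene of 5 lists in the 3 comparisons, red where higher and blue where lower at an adjusted p of 0.05, white where not passed, with the list median as a line. In the middle panel the 30 G1/S targets have a median of -0.29 and the 18 G2/M targets a median of 0.51.

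The authors' deposited table compares shRRM2/shp16 with shRRM2 only, and calls 4 of the 10 genes significant. In the authors' deposited table these were E2F1 (log2 fold change -0.66, q = 4.4e-04), E2F3 (-0.34, q = 0.0118), E2F7 (-1.45, q = 4.4e-04) and TFDP1 (-0.37, q = 0.00718), each in the direction found from the counts. RBL2 at 0.18 (q = 0.417) and E2F8 at -0.14 (q = 0.728) had that direction in the authors' deposited table but did not pass. RB1 had the opposite sign there, at -0.05 (q = 0.914), against 0.20 from the counts. The authors' deposited table does not call E2F2 (0.50, q = 0.270), RBL1 (0.13, q = 0.689) or E2F4 (0.02, q = 0.924) either.

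The genes whose level followed these most closely were ranked by Pearson's r of log2 CPM over the 9 libraries, among 11306 genes whose mean log2 CPM was 2 or more. The libraries fall into 3 groups, so r reflects mainly the 3 group levels, and it is given as a rank only. Closest to E2F1 were SYNPO (r = 0.998), OLFML3 (r = 0.997) and SAE1 (r = 0.996). SYNPO was at 405, 257 and 157 CPM on average in control, shRRM2 and shRRM2/shp16. Closest to E2F7 were KCNQ5 (r = 0.998), DTL (r = 0.997) and TSHZ3 (r = 0.997), with KCNQ5 at 17.4, 10.3 and 1.75 CPM. Closest to RBL2 were ALAS1 (r = 0.997), UBXN4 (r = 0.996) and KLHL24 (r = 0.996), with ALAS1 at 42.9, 51.8 and 72.2 CPM.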

How the data were processed

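Raw read counts per Ensembl gene, in the layout of HTSeq, were deposited by the authors for each of the 9 libraries. The submitters' processing notes name TopHat2 2.0.9, Cufflinks 2.0.2, Cuffdiff and GRCh38; the annotation and strand setting are not given in the sources used here. Per the labels' protocols, ribosomal RNA was depleted and libraries were stranded. A second table holds the authors' columns labelled log2 RPKM per library, whose values are scaled per base of gene length and not per kilobase. It also gives, per the file headers, the authors' group FPKM, log2 fold change, test score, p-value and q-value of their own comparison of both hairpin groups. The log2 RPKM columns of 8 libraries match the deposited counts within 0.1%, while that of shRRM2 c does not for 9796 of 9863 genes.

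Counts were tested with edgeR 4.0.16 (R 4.3.3): TMM factors, filterByExpr, a quasi-likelihood fit over all 9 libraries with 6 residual degrees of freedom, two-sided tests and Benjamini-Hochberg adjustment over 16561 genes, with a threshold of 0.05. Tally lines that name no gene were left out of library sizes. RPKM values were computed from scaled counts and the gene lengths that the 8 matching columns imply. Groups do not overlap where every library of one lies beyond every library of the other. Intervals are at 95%. Alternatives were RLE size factors, DESeq2 1.42.0, 2 other count filters, only the 6 libraries compared, a replicate block and leaving out each library. Limma 3.58.1 was also run on log2(RPKM + 0.1), from the deposited values rescaled to kilobases, with and without the column of shRRM2 c. The pseudocount was chosen after its scale had been seen. The pipeline was tested on simulated data in which only a small part of the genes changed, all of them in the shRRM2 group. That setting does not cover changes as common as those found here. Replicate pairs differed beyond counting noise (chi-square per degree of freedom 1.43 to 2.87). That added spread was small, with a common coefficient of variation of 0.027 in edgeR. There were 0 columns that matched no sample. Reads carry no molecular identifiers.

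The 10 genes and all lists were chosen with earlier results of these data known. Named were the members, the targeted genes, any gene of the DP, MuvB, kinase and inhibitor lists, the 2 highest and 2 lowest called genes of the other lists per comparison, and the 3 genes most like E2F1, E2F7 and RBL2. The symbol TFDP2 has 2 identifiers and the one with most counts was used. Positions are from GENCODE 29.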

Additional observations from a re-analysis of the deposited data

How the results depend on the processing

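Over 17 alternatives, 501 of 510 fold changes of the 10 genes kept their side of the threshold. Of the others, 7 were no longer past it and 2 newly passed, all 9 given beside RB1, RBL2, E2F2 and E2F4 above. Where either fit passed, 0 reversed in sign. Small differences that passed in neither fit could change sign. RB1 reached 0.04 and E2F3 -0.02 in shRRM2/shp16 against control, and E2F4 reached -0.01 in shRRM2/shp16 against shRRM2. The number of the 10 genes called ranged from 9 to 10 in shRRM2 against control, 6 to 8 in shRRM2/shp16 against shRRM2 and 7 to 9 in shRRM2/shp16 against control. With limma on log2 RPKM the median of all genes moved to 0.11 in shRRM2/shp16 against control, and the share of calls that were higher moved from 48.1% to 60.1%. Replicate letters did not pair the libraries: deviations of same-letter libraries correlated at -0.02 to 0.05, and 3 of 9 libraries correlated best with their own letter. With a replicate block, 10101, 10134 and 10388 genes were called in the 3 comparisons, and 10, 7 and 8 of the members. E2F2, with 42 to 160 reads per library, is limited most by depth.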

Other observations

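Genes outside the RB and E2F set were grouped by whether their RefSeq window held an E2F-type motif match. Among tested genes with a match, 46.3% of 1251 were lower in shRRM2 than in control, against 36.4% of 9137 without one, with median log2 fold changes of -0.12 and -0.04. In shRRM2/shp16 against shRRM2, 40.0% of those with a match were higher and 27.0% lower, against 35.8% and 31.0% of those without. In shRRM2/shp16 against control, 42.2% and 37.0% were lower. These are descriptions with no test.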
